A study of Mus musculus with 8 samples.

Results

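The genes described here are 50 regulators of chromatin: subunits of the Polycomb repressive complexes PRC1 and PRC2, histone methyltransferases and demethylases, DNA methyltransferases, TET dioxygenases and histone deacetylases. They were taken by name from a count table of 54837 gene identifiers, and all 50 were found there. All 50 also passed the filter on low counts that left 15192 genes for testing, so no member was dropped. RNA was sequenced from basal cells of the mouse mammary gland sorted by cell cycle phase, in 8 libraries. The G1 group holds cells that have entered the cycle but not yet begun DNA synthesis, and the G0 group holds cells that have left the cycle, with 4 libraries each. Each group has 1 library in each of runs 1 to 4. Both groups came from untreated mice of the strain labelled C57BL/B6, and the labels name no other allele or agent. The labels give neither the age of the animals nor the sort markers, and do not say whether runs used separate animals. The p-values therefore reflect the spread among these libraries alone, which may be technical.

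Polycomb proteins keep developmental genes silent. PRC2 methylates lysine 27 of histone H3, and PRC1 ubiquitinates histone H2A and compacts the marked chromatin. Trithorax-type methyltransferases of the KMT2 and SETD1 families place the opposing mark on lysine 4 of histone H3, and lysine demethylases remove such marks. Dnmt1 copies DNA methylation onto newly made strands, Dnmt3a and Dnmt3b add it at new sites, and TET enzymes oxidise it. In the mammary gland, Ezh2 and Bmi1 are known for roles in the maintenance and expansion of progenitor cells. Several genes of these families, among them Ezh2 and Dnmt1, are textbook targets of E2F factors, which RB proteins hold in check in resting cells.

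Total counts lay between 6807090 and 13711195 in the G1 libraries and between 5868728 and 15014104 in the G0 libraries. Counts above 0 were found for 20836 to 26614 genes in 7 of the libraries and for 39094 genes in the G0 library of run 4, the shallowest library. Levels are given as CPM, the usual count scaled to library size, with TMM factors. Krt5, Krt14 and smooth muscle genes marked the cells as basal: a list of 10 basal markers summed to 26380 to 29679 CPM in G1 and to 19331 to 23951 CPM in G0. With run in the model 2 of the 10, Acta2 and Cnn1, were higher in G1 and 0 lower. A list of 10 luminal markers, among them the keratins Krt8 and Krt18, summed to 1944 to 2839 CPM in G1 and to 1898 to 3241 CPM in G0. Another list, of 12 endothelial markers, summed to 39.0 to 153 CPM in G1 and to 191 to 332 CPM in G0, and all 12 were lower in G1 past an adjusted p of 0.05 in the model with run. The lists of fibroblast and adipocyte markers had 4 of 8 and 2 of 3 tested genes lower past the same threshold, and those of luminal, immune and proliferation markers had 0 called in either direction. The fibroblast list summed to 243 to 609 CPM in G1 and to 208 to 904 CPM in G0. Its 1 gene with a positive log2 fold change, Dcn (0.58), averaged 255 CPM in G1 and 178 CPM in G0. The tested adipocyte markers were Fabp4, Lpl and Cd36, while Adipoq, Plin1 and Cidec did not pass the low-count filter. No marker on these lists was at 0 in every library. In bulk RNA of this kind, fewer cells of a type and less RNA per cell cannot be told apart, and the part of these other cells in the values below was not tested.

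The first question was whether any regulator differed between G1 and G0 cells. In edgeR's quasi-likelihood test with phase alone in the model, 0 of the 50 passed a Benjamini-Hochberg adjusted p of 0.05, and 0 of the 15192 genes tested did (0%). At an unadjusted p under 0.05 the counts were 0 of the 50 members and 425 of all genes (2.8%), and DESeq2 called 0 members. G1 and G0 libraries of the same run deviated from their group means together, so a second model held the run as a block. It called 189 genes (1.24%), 73 higher in G1 (0.481%) and 116 lower (0.764%), and 0 of the 50 members. The smallest adjusted p of a member was 0.249, for Rybp, and with phase alone it was 0.999919 for every member. Unless another model is named, each log2 fold change (G1 over G0) comes from the one with run. At an unadjusted p under 0.05, 4 members were reached with run in the model (Rybp, Kmt2c, Kmt2b and Dnmt1), a share below that of all tested genes (12.3%). All 4 had negative log2 fold changes, as had 5.69% of all tested genes at that threshold. When transcript length and GC content were also allowed for, 1 of the 50, Rybp, was reached. The share of all tested genes reached in that model was not computed, so this count has nothing to be set against.

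The estimates bound how large a difference could have gone unseen. With run in the model, the 95% interval of the log2 fold change, G1 over G0, lay within 2-fold either way for 48 of the 50 members (96.0%), against 76.7% of all tested genes. Phf19 and Setd1b were the exceptions. With phase alone it did so for 44 members (88.0%), against 64.1% of all genes. The median size of the log2 fold change was 0.13 over the members and 0.17 over all genes. Of the 50 members, 37 (74.0%) had a negative log2 fold change, against 48.9% of all tested genes, and their median was −0.10, against 0.0072. With offsets for transcript length and GC content, 28 of the 50 were negative, and without run 4 the median was −0.04. No member had its 4 G1 libraries all on one side of its 4 G0 libraries, which 1.17% of genes had with G1 below and 0.829% with G1 above. Kdm1a, Setd1b and Hdac4 were lower in G1 in all 4 runs, 3 of 50 (6%) against 9.46% of all genes, and no member was higher in all 4, as 11.3% of all genes were.

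**Figure D1:**
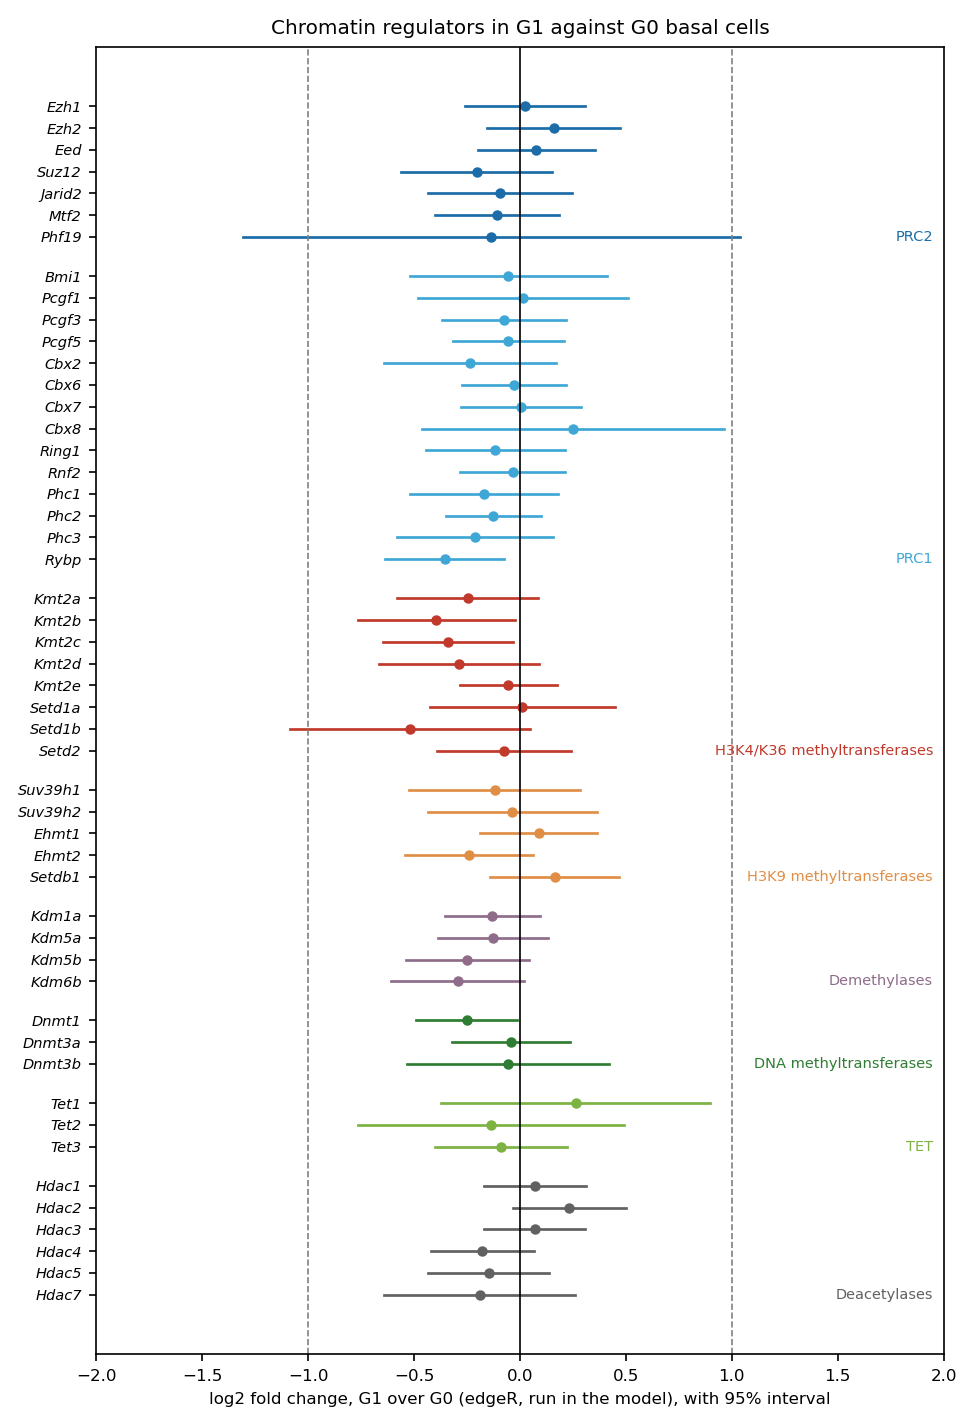
Log2 fold change, G1 over G0, of each of the 50 regulators (points) with its 95% interval (lines), from edgeR with run in the model; colours mark the enzyme classes and dashed lines a 2-fold difference. All but 2 intervals, those of Phf19 and Setd1b, lie within the dashed lines, and no gene passed the adjusted threshold.

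PRC2 was the first class examined. Its 7 members had log2 fold changes from −0.20 to 0.16 with run in the model, with a median of −0.09, and 4 of the 7 were negative. The catalytic subunit Ezh2 (ENSMUSG00000029687, chromosome 6: 47530139 to 47595341 on the minus strand, GRCm38) had 26.6, 24.4, 33.9 and 25.8 CPM in the G1 libraries of runs 1 to 4, against 24.7, 17.6, 34.2 and 24.5 CPM in the G0 libraries. The groups overlapped, and the G1 value was the higher one in 3 of the 4 runs, by most in run 2. Its log2 fold change was 0.16 ± 0.15 (SE, n = 4 per phase; adjusted p = 0.746, edgeR with run). Suz12, the subunit that the core complex needs to hold together, had 33.2, 29.97, 15.3 and 19.7 CPM in G1 and 35.7, 23.9, 27.8 and 22.9 CPM in G0. Run 3 held the widest gap, a within-run log2 ratio of −0.85, while run 2 went the other way at 0.33. Over all runs the log2 fold change of Suz12 was −0.20 ± 0.17 (SE; adjusted p = 0.702).

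The other PRC2 members had estimates closer to 0. Ezh1, the catalytic subunit often prominent in cells that do not divide, averaged 42.7 ± 12.4 CPM in G1 and 42.6 ± 13.2 CPM in G0 (SD, n = 4 each), with a log2 fold change of 0.02 ± 0.14 (SE). Eed, which reads the methyl mark that PRC2 makes, averaged 52.8 ± 8.03 CPM in G1 and 50.9 ± 13.3 CPM in G0. Mtf2, an accessory subunit that guides PRC2 to CpG islands, had 43.1, 49.9, 39.9 and 33.0 CPM in G1 and 45.4, 41.2, 54.8 and 37.7 CPM in G0, and the groups overlapped. Its log2 fold change was −0.11 ± 0.14 (SE; adjusted p = 0.828). Tmed5, a gene on the opposite strand that averaged 134 CPM, overlaps 6.93% of the exon bases of Mtf2. The strand on which reads were counted is not stated, so its part in the Mtf2 counts is not known. Jarid2, another accessory subunit of PRC2, averaged 19.3 ± 2.05 CPM in G1 and 20.7 ± 2.31 CPM in G0. Phf19 was barely detected, at 0.843 to 1.63 CPM in G1 and 0.454 to 2.90 CPM in G0, and its interval, −1.31 to 1.04, excluded little.

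Per base of annotated exon, Ezh1 was above Ezh2 in most libraries. Levels of different genes were compared as CPM per kilobase of exon, since longer genes collect more reads. The length counted every annotated exon base of a gene, merged over its transcripts. For Ezh2 it was 6678 bases, against 2787 in the longest transcript, and for Ezh1 7440 against 4207. Per base of the longest transcript the Ezh2 to Ezh1 ratio would be higher, so orders between genes are for the merged length. Ezh2 stood at 0.786 ± 0.324 of the Ezh1 level in G1 and at 0.782 ± 0.532 in G0 (ratio of CPM per kilobase, SD, n = 4 each). The ratio exceeded 1 in 2 of the 8 libraries, 1.23 in G1 and 1.56 in G0, both of run 3. In the other runs it lay between 0.451 and 0.749 in G1 and between 0.35 and 0.615 in G0.

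Windows around the start sites of 5 members held an E2F-type word, and those of Ezh2, Suz12 and Dnmt1 are shown because E2F factors act as cells leave the resting state, which is the comparison made here. The sequences are RefSeq windows on GRCm38.p6, 250 bases before to 50 after a start site, 5′ to 3′ on the gene's strand, with the matched word in capitals. That of Dnmt1 surrounds a start site inside the gene, whose span on the minus strand starts at 20959888, so it is not sequence upstream of the whole gene. The words searched were TTTCCCGC, TTTGGCGC, TTTGCCGC and TTTCGCGC on both strands, so a match on the opposite strand reads as the reverse complement, and a window was counted once however many it held.
Ezh2, chr6:47594981-47595280, minus strand: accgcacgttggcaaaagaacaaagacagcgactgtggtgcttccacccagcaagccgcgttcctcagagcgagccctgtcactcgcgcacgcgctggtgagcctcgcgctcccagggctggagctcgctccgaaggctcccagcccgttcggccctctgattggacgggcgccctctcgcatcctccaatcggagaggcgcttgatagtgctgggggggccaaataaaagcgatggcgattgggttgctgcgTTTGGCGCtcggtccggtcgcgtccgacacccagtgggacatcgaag
Suz12, chr11:79992856-79993155, plus strand: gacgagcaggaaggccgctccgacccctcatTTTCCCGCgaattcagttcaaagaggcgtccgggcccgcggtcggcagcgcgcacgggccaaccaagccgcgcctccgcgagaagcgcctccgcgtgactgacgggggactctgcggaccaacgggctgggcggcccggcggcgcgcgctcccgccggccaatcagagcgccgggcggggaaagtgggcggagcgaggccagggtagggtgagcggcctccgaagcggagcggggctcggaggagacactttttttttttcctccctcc
Dnmt1, chr9:20952574-20952873, minus strand: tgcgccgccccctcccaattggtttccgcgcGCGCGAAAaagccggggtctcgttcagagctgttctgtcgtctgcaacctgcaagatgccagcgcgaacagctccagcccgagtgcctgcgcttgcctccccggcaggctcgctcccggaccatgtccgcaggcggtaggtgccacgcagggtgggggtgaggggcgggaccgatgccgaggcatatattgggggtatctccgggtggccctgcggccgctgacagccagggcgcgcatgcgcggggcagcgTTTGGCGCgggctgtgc

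Such a word was found in 5 of the 40 members that had a window (12.5%), against 4.66% of the 10623 tested genes with a window and 2.61% of all 27025 genes with one. The other 2 were Phf19 and Suv39h1, and 10 members had no window in the table. With run in the model the log2 fold changes of these 5 genes were 0.16 for Ezh2, −0.20 for Suz12, −0.25 for Dnmt1, −0.14 for Phf19 and −0.12 for Suv39h1, and their adjusted p-values lay between 0.370 and 0.957. The windows of members were rich in CpG, with a median of 31.5 CpG in a gene's richest window, against 22 over tested genes. A match is a description of the letters in the window and shows neither binding nor its absence.

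PRC1 has 14 members here, the largest class, with a median log2 fold change of −0.07 and 11 of 14 negative with run in the model. Rybp (chromosome 6: 100228565 to 100287485, minus strand), which defines the variant PRC1 complexes and stimulates H2A ubiquitination, had 32.4, 46.6, 62.7 and 39.1 CPM in G1 and 44.0, 45.8, 80.7 and 62.2 CPM in G0. G1 was lower in runs 1, 3 and 4 and level with G0 in run 2, where the log2 ratio was 0.02. The groups overlapped, and run 3 was the highest of each. Its log2 fold change was −0.36 ± 0.14 (SE, n = 4 per phase), with a 95% interval of −0.64 to −0.08, and it had the smallest p among the 50. That p did not survive adjustment: adjusted p was 0.249 with run in the model and 0.136 when transcript length and GC content were also allowed for.

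Within PRC1, Phc3 and Cbx2 had the next smallest p-values. The chromodomain protein Cbx2, which reads H3 lysine 27 methylation, had 9.71, 13.2, 7.86 and 10.3 CPM in G1 and 12.6, 16.1, 9.47 and 10.01 CPM in G0, lower in G1 in 3 of 4 runs. Its log2 fold change was −0.23 ± 0.20 (SE; adjusted p = 0.697). Phc3, a polyhomeotic subunit whose domains polymerise, had 21.6, 21, 13.7 and 16.4 CPM in G1 and 17.5, 22.8, 17.6 and 27.3 CPM in G0. Its within-run log2 ratio was 0.30 in run 1 and −0.73 in run 4, and its log2 fold change was −0.21 ± 0.18 (SE; adjusted p = 0.695).

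None of the catalytic and scaffold subunits of PRC1 was called. Log2 fold changes were −0.12 ± 0.16 for Ring1, −0.13 ± 0.11 for Phc2 and −0.17 ± 0.17 for Phc1 (SE). Rnf2, the main ubiquitin ligase, averaged 83.3 ± 10.1 CPM in G1 and 85.3 ± 10.1 CPM in G0 (SD, n = 4 each), a log2 fold change of −0.03 ± 0.12 (SE). Ring1, its paralog, averaged 25.4 ± 7.43 CPM in G1 and 27.9 ± 9.85 CPM in G0, and per kilobase Rnf2 exceeded Ring1 in 8 of 8 libraries, by 1.78 to 4.43 times. Bmi1 averaged 10.7 ± 2.86 CPM in G1 and 11.1 ± 2.96 CPM in G0, with within-run log2 ratios of 0.29, 0.23, −0.96 and 0.23 for runs 1 to 4. Run 3 alone put Bmi1 lower in G1. The other PCGF proteins, which set the type of PRC1 complex, had log2 fold changes of 0.02 (Pcgf1), −0.08 (Pcgf3) and −0.05 (Pcgf5). Phc2 had the highest level of all 50 members per kilobase of exon, 40.6 ± 5.92 CPM per kilobase in G1 and 44.3 ± 5.31 in G0. Phc1 was lower, at 3.43 ± 1.14 CPM per kilobase in G1 and 3.74 ± 0.797 in G0.

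Among the CBX readers, Cbx6 and Cbx7 had the highest levels. Cbx6 had 158, 134, 104 and 111 CPM in G1 and 156, 149, 84.7 and 135 CPM in G0, a log2 fold change of −0.03 ± 0.12 (SE; adjusted p = 0.957). Cbx7 had 58.6, 55.0, 50.6 and 58.4 CPM in G1 and 55.2, 68.9, 36.7 and 67.2 CPM in G0, with a log2 fold change of 0.0048 and a 95% interval of −0.28 to 0.29. The G1 values of Cbx7 lay inside the range of the G0 values. Cbx8 had 3.05, 2.45, 5.0 and 5.53 CPM in G1 and 3.90, 2.42, 2.19 and 5.0 CPM in G0, a log2 fold change of 0.25 ± 0.35 (SE; adjusted p = 0.841). The order Cbx6, Cbx7, Cbx2, Cbx8 by CPM per kilobase was the same in both phases. Relative to Cbx6, Cbx7 stood at 0.733 ± 0.116 in G1 and at 0.714 ± 0.0991 in G0 (SD, n = 4 each). Cbx2 stood at 0.204 ± 0.0418 of Cbx6 in G1 and at 0.233 ± 0.0474 in G0, and Cbx8 at 0.0977 ± 0.0503 in G1 and at 0.0751 ± 0.0245 in G0.

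**Figure D2:**
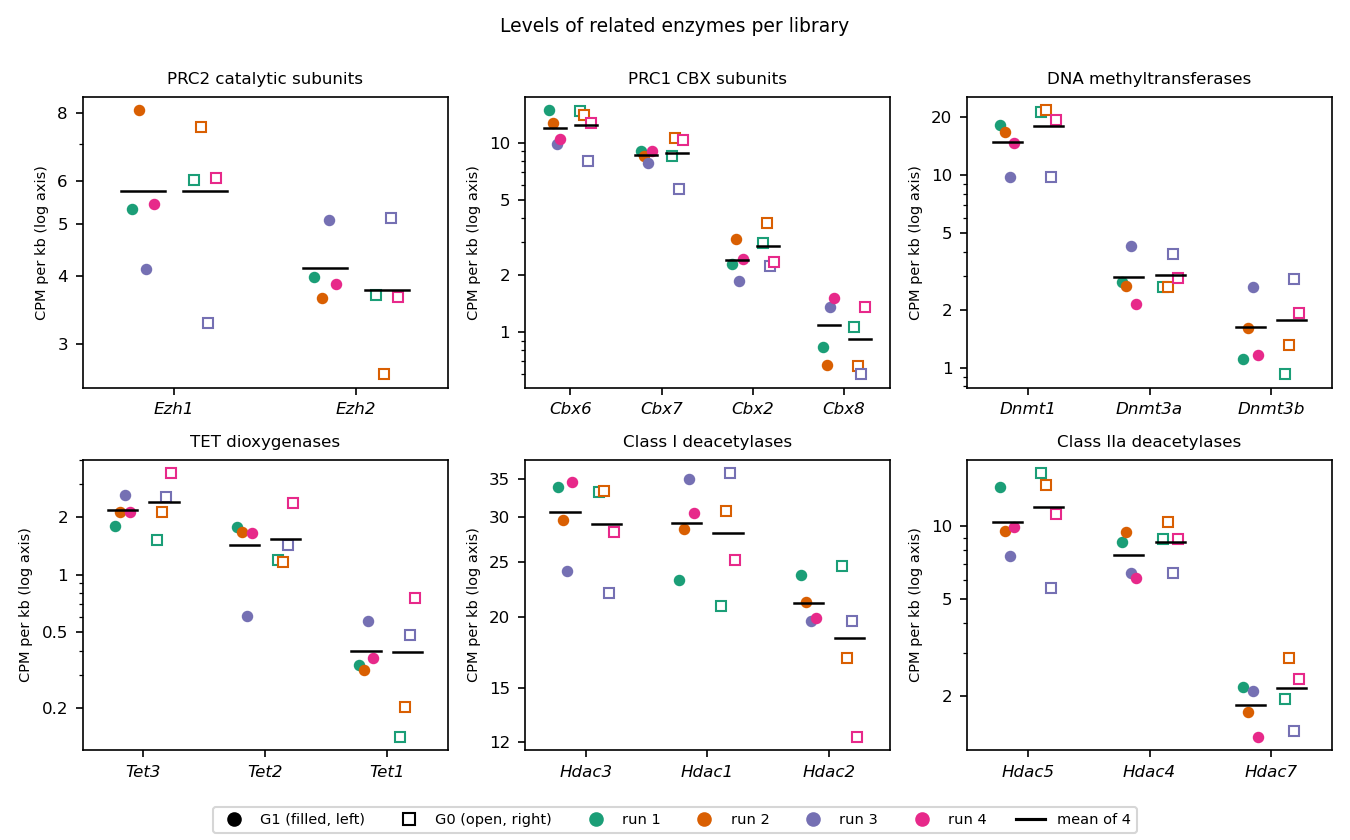
Level per library, in CPM per kilobase of exon on log axes, of related enzymes; filled circles (left of each pair) are G1, open squares are G0, colours are runs and bars are means of 4. Within each family the genes keep their order between phases by mean level, Ezh1 above Ezh2, Cbx6 above Cbx7, Dnmt1 above Dnmt3a and Tet3 above Tet2.

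The methyltransferases of H3 lysine 4 and lysine 36 had the most negative class median. It was −0.27 over 8 genes with run in the model and −0.33 with phase alone, 7 of the 8 were negative, and 0 were called. Kmt2b (chromosome 7: 30568858 to 30588726, minus strand), a trithorax-type enzyme acting at CpG-rich promoters, had 22.2, 16.3, 25.5 and 15.4 CPM in G1 and 20.4, 21.1, 30.5 and 34.5 CPM in G0. G1 was higher in run 1 and lower in the other 3, most of all in run 4, where the log2 ratio was −1.15. The log2 fold change of Kmt2b was −0.40 ± 0.18 (SE; adjusted p = 0.367) over all runs. It was −0.18 ± 0.17 when run 4 was left out and −0.19 when transcript length and GC content were allowed for. Kmt2c, an enhancer methyltransferase, had 47.5, 71.2, 60.8 and 41.2 CPM in G1 and 48.6, 67.3, 86.9 and 79.2 CPM in G0, a log2 fold change of −0.34 ± 0.15 (SE; adjusted p = 0.339), which was −0.17 ± 0.14 without run 4 and −0.14 after that allowance. Runs 1 and 2 gave Kmt2c ratios near 0, and runs 3 and 4 gave −0.52 and −0.94. Setd1b, a subunit of the SET1 complexes, had 5.95, 4.75, 7.35 and 4.48 CPM in G1 and 6.62, 5.46, 7.84 and 15.5 CPM in G0. The first 3 runs differed by at most 0.19 on the log2 scale, and run 4 had a ratio of −1.75, and the estimate was −0.52 ± 0.27 (SE; adjusted p = 0.465) over all runs and −0.16 ± 0.27 without run 4.

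Run 4 gave this class its lowest ratios. All 8 genes were lower in G1 in run 4, with a median log2 ratio of −0.87, against class medians of 0.02, 0.08 and −0.20 in runs 1 to 3. Without run 4 the class median was −0.05. Kmt2a, the mouse MLL protein, had a ratio of −0.81 in run 4 and ratios of 0.11, 0.28 and −0.59 in runs 1 to 3, and Kmt2d, another enhancer enzyme, had −1.16 against −0.12, 0.08 and 0.01. Without run 4 the log2 fold change of Kmt2d was −0.02 ± 0.12 and that of Kmt2a −0.08 ± 0.16 (SE). Setd2, which trimethylates H3 lysine 36, had −0.53 in run 4 and 0.24, 0.36 and −0.40 in runs 1 to 3. Kmt2e, a reader of lysine 4 methylation with little or no enzyme activity, had the highest level of the class, 13.9 ± 2.53 CPM per kilobase in G1 and 14.3 ± 1.28 in G0, and a log2 fold change of −0.05. Setd1a had a log2 fold change of 0.01 ± 0.21 (SE), but 51.85% of its exon bases are shared on the same strand with the gene model Gm49388, listed at 0 in every library, so its counts may be understated.

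**Figure D3:**
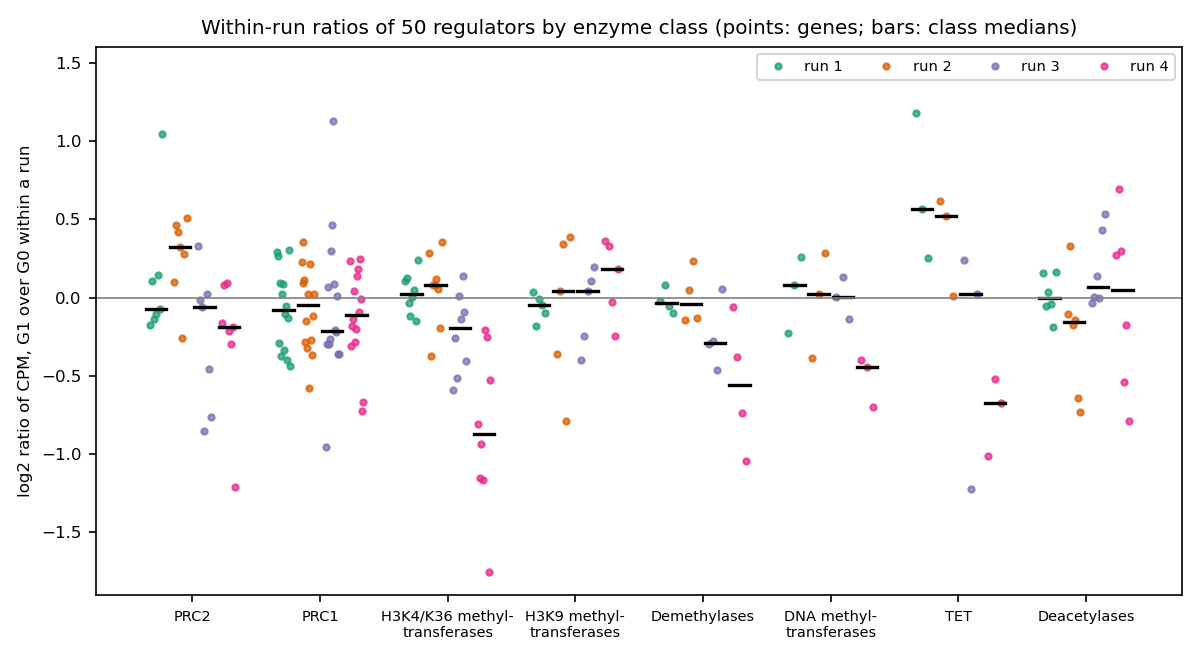
Log2 ratio of CPM, G1 over G0, within each run (colours) for each of the 50 regulators (points), by enzyme class, with the class median of each run as a bar. Run 4 medians reach −0.87 for H3K4/K36 methyltransferases and −0.67 for TET enzymes, while those of runs 1 and 2 for the same classes lie above 0.

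Transcript length moved with these ratios in run 4. Across the 15183 tested genes with a known length, the Spearman correlation of the within-run log2 ratio with the length of the longest transcript was −0.03, −0.01, −0.16 and −0.37 in runs 1 to 4. Across the 50 members it was 0.21, 0.03, −0.03 and −0.71. These are descriptions across genes, which share libraries and are not independent replicates. In run 4 the 15 members with transcripts over 8000 bases had a median log2 ratio of −0.73 and the other 35 a median of −0.14. All tested genes showed medians of −0.56 for the 768 over that length and 0.02 for the rest. The members are long, with a median of 5529 bases against 3097 for all tested genes, and the class medians were 8663 bases for the H3K4 and H3K36 methyltransferases and 10904 for the TET enzymes. GC content moved with the ratios of other runs, with Spearman correlations among members of −0.62 in run 2 and 0.50 in run 3, and of −0.41 and 0.25 among all genes. With offsets for length and GC added to the model with run, the median over the 50 members was −0.01, against 0.01 over all genes, and that of the H3K4 and H3K36 class was −0.01. The G0 library of run 4 was also the one with counts in the most genes and the fewest total counts. Its part in these ratios was not tested.

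**Figure D4:**
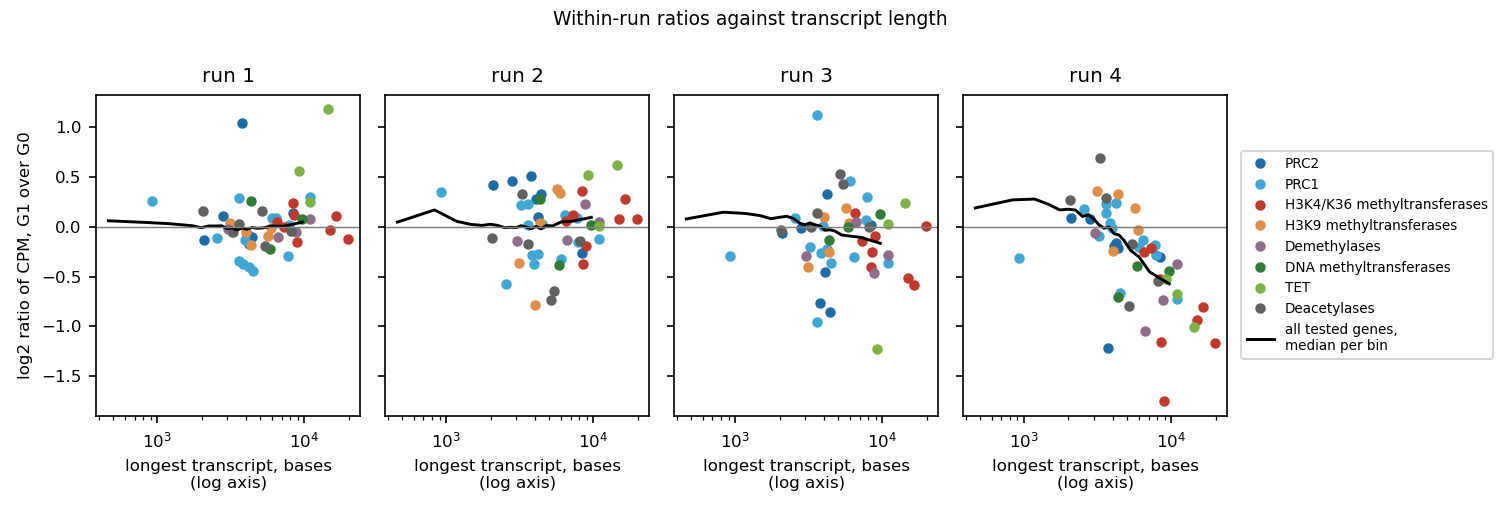
Within-run log2 ratio of CPM, G1 over G0, against the longest transcript in bases (log axis) for the 50 regulators (points, coloured by class), 1 panel per run, with the median of all tested genes in bins of length as a black line. In runs 1 and 2 the line stays near 0, and in run 4 it falls with length, as the points do (Spearman −0.71 among the 50).

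The H3 lysine 9 methyltransferases, which mark heterochromatin and silenced genes, had a median log2 fold change of −0.04 over 5 genes with run in the model, the median nearest to 0 of the 8 classes, and 0 were called. Ehmt2, the G9a enzyme, had 36.5, 28.7, 62.9 and 42.0 CPM in G1 and 37.7, 49.7, 58.5 and 49.8 CPM in G0. Run 2 gave the only ratio far from 0, −0.79, and the log2 fold change was −0.24 ± 0.15 (SE; adjusted p = 0.545). Its partner Ehmt1 had 41.2, 51.4, 35.9 and 51.5 CPM in G1 and 41.5, 40.6, 34.9 and 52.5 CPM in G0, a log2 fold change of 0.09 ± 0.13 (SE; adjusted p = 0.856). Setdb1, which works with KAP1 at silenced repeats, had 37.0, 31.8, 25.2 and 29.9 CPM in G1 and 39.6, 24.3, 22.0 and 26.3 CPM in G0. Its G1 value was the higher one in 3 of 4 runs, and the log2 fold change was 0.16 ± 0.15 (SE; adjusted p = 0.722). Suv39h1 and Suv39h2, which trimethylate lysine 9 in pericentric heterochromatin, averaged 12.2 ± 1.38 and 11.96 ± 1.64 CPM in G1, against 13.5 ± 4.38 and 12.4 ± 3.64 CPM in G0.

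All 4 demethylases had negative log2 fold changes, with a median of −0.19, and 0 were called. Kdm6b, which removes methyl groups from H3 lysine 27 and so opposes PRC2, had 71.1, 70.4, 165 and 72.9 CPM in G1 and 76.2, 77.1, 159 and 151 CPM in G0. Both libraries of run 3 and the G0 library of run 4 were about level, and the rest lay well below. Its log2 fold change was −0.30 ± 0.15 (SE; adjusted p = 0.449) over all runs and −0.07 ± 0.12 without run 4. Kdm5b, an H3 lysine 4 demethylase, had 68.4, 82.3, 71.1 and 56.2 CPM in G1 and 70.8, 70.1, 98 and 93.8 CPM in G0, a log2 fold change of −0.25 ± 0.14 (SE; adjusted p = 0.506). Runs 3 and 4 carried that difference, with ratios of −0.46 and −0.74. Kdm1a (chromosome 4: 136550540 to 136602723, minus strand), the flavin-dependent LSD1 enzyme, had 172, 173, 163 and 183 CPM in G1 and 175, 191, 200 and 190 CPM in G0. It was the steadiest of the class, with G1 lower in all 4 runs by small amounts, log2 ratios of −0.02, −0.15, −0.30 and −0.06. The estimate was −0.13 ± 0.11 (SE; adjusted p = 0.693), with an interval of −0.36 to 0.09. Kdm5a averaged 69.5 ± 13.6 CPM in G1 and 75.2 ± 5.29 CPM in G0.

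Dnmt1 was the DNA methyltransferase with the largest estimate. The gene (chromosome 9: 20907209 to 20959888, minus strand) had 135, 123, 72.3 and 108 CPM in G1 and 158, 161, 72.1 and 142 CPM in G0. G1 was lower in runs 1, 2 and 4 and equal to G0 in run 3, where both libraries were the lowest of their groups. The log2 fold change was −0.25 ± 0.12 (SE, n = 4 per phase), with an interval of −0.49 to −0.01 and an adjusted p of 0.370, and it was −0.13 with length and GC offsets (adjusted p = 0.513). Dnmt3a had 46.3, 44.5, 71.1 and 35.6 CPM in G1 and 43.9, 43.8, 65.0 and 48.4 CPM in G0, a log2 fold change of −0.04 ± 0.14 (SE; adjusted p = 0.940). Dnmt3b had 5.67, 8.20, 13.4 and 5.98 CPM in G1 and 4.72, 6.71, 14.7 and 9.83 CPM in G0, a log2 fold change of −0.06 ± 0.23 (SE; adjusted p = 0.956). For both, the run 3 libraries were the highest of their phase, the reverse of Dnmt1. Dnmt3a therefore reached 0.436 of the Dnmt1 level per kilobase in G1 and 0.399 in G0 in run 3, against 0.146 to 0.160 in G1 and 0.121 to 0.151 in G0 in the other runs. Dnmt1 was the most abundant of the 3 per kilobase in all 8 libraries.

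The TET enzymes went opposite ways in different runs. Tet3 had 30.2, 35.6, 43.5 and 35.7 CPM in G1 and 25.3, 35.3, 42.7 and 57.0 CPM in G0, and Tet2 had 29.8, 28.3, 10.2 and 27.9 CPM in G1 and 20.1, 19.7, 24.1 and 40.2 CPM in G0. Tet1 had 5.17, 4.91, 8.88 and 5.68 CPM in G1 and 2.18, 3.13, 7.49 and 11.6 CPM in G0. The class median of within-run log2 ratios was 0.56 and 0.52 in runs 1 and 2, 0.02 in run 3 and −0.67 in run 4. By that median G1 was the higher phase in runs 1 and 2 and the lower one in run 4. Single genes departed from it: Tet3 was level in run 2, at 0.0093, and Tet2 was at −1.22 in run 3. Log2 fold changes were −0.09 ± 0.15 for Tet3, −0.14 ± 0.28 for Tet2 and 0.26 ± 0.31 for Tet1 (SE), with adjusted p from 0.801 to 0.899. Without run 4 the estimate for Tet1 was 0.67 ± 0.31 (SE; adjusted p = 0.626). Per kilobase Tet1 stood at 0.182 ± 0.0300 of Tet3 in G1 and at 0.149 ± 0.0650 in G0, and Tet2 at 0.693 ± 0.321 in G1 and 0.649 ± 0.115 in G0 (SD, n = 4 each).

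The 6 deacetylases had a median log2 fold change of −0.04, and 0 were called. Of the class I enzymes, the catalytic cores of corepressor complexes, Hdac1, Hdac2 and Hdac3 had positive log2 fold changes. Of the class IIa enzymes, which shuttle between nucleus and cytoplasm, Hdac4, Hdac5 and Hdac7 had negative ones. These signs did not all hold. Without run 4, Hdac1 and Hdac3 were at −0.0052 and −0.01, and the others kept their signs. With length and GC offsets Hdac5 was at 0.01, Hdac4 at −0.03 and Hdac7 at −0.04, and class I stayed positive. Hdac2 had 106, 94.9, 88.0 and 88.9 CPM in G1 and 110, 75.6, 87.8 and 54.9 CPM in G0, a log2 fold change of 0.23 ± 0.13 (SE; adjusted p = 0.496). Run 4 gave its largest ratio, 0.69, the opposite sign to the long transcripts of that run. Hdac1 had 80.1, 98.3, 121 and 105 CPM in G1 and 71.8, 106, 124 and 86.7 CPM in G0, and Hdac3 had 137, 120, 97.8 and 140 CPM in G1 and 134, 135, 89.1 and 114 CPM in G0. Both had a log2 fold change of 0.07 ± 0.12 (SE), with adjusted p of 0.870 and 0.868.

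Hdac4 had 136, 150, 101 and 96.5 CPM in G1 and 141, 165, 102 and 141 CPM in G0, lower in G1 in all 4 runs but with log2 ratios of −0.04, −0.14, −0.0036 and −0.54. Its log2 fold change was −0.18 ± 0.12 (SE; adjusted p = 0.592). The opposite-strand gene Gm26720 overlaps 22.4% of the exon bases of Hdac4 and averaged 18.3 CPM, and no source used here gives the strand setting of the counts. Other members overlapped on the opposite strand include Suv39h1 (14.55%, Gm14820 at 4.72 CPM), Kmt2e (9.31%, Srpk2 at 40.2 CPM) and Suv39h2 (8.1%, Dclre1c at 7.41 CPM). Hdac5 had 128, 83.7, 66.1 and 87.5 CPM in G1 and 146, 131, 48.9 and 98.8 CPM in G0, a log2 fold change of −0.15 ± 0.14 (SE; adjusted p = 0.737). Hdac7 had 14.7, 11.6, 14.1 and 9.11 CPM in G1 and 13.2, 19.3, 9.68 and 15.9 CPM in G0, a log2 fold change of −0.19 ± 0.22 (SE; adjusted p = 0.796). Run 3 gave both genes their highest ratio, 0.43 for Hdac5 and 0.53 for Hdac7, and the ratio of Hdac7 was also above 0 in run 1, at 0.16. Per kilobase the class I enzymes were the more abundant, with means over all 8 libraries of 29.9 CPM per kilobase for Hdac3, 28.7 for Hdac1 and 19.7 for Hdac2, against 11.2, 8.16 and 1.99 for Hdac5, Hdac4 and Hdac7.

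Across the classes, the levels per kilobase spanned from 42.4 CPM per kilobase for Phc2 through 34.9 for Kdm1a down to 0.601 for Setd1b, 0.397 for Tet1 and 0.266 for Phf19, as means over 8 libraries. The median member stood at 4.62 CPM per kilobase, against 4.64 for all tested genes. Neighbours in this order often differed by less than their spread: Hdac3 and Hdac1, for example, had 30.6 ± 4.82 and 29.3 ± 4.87 CPM per kilobase in G1 (SD, n = 4).

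The run was examined next. A test of the run term in the blocked model, added after the data were seen, called 20 of the 50 members (40%) at an adjusted p of 0.05, a share near that of all tested genes (35.6%). Run 3 was the farthest from the others in 14 of the 20, the highest in 7 and the lowest in 7. Dnmt1 had run means of 146, 142, 72.2 and 125 CPM for runs 1 to 4 (adjusted p = 0.000125, edgeR), and Hdac5 had 137, 107, 57.5 and 93.2 CPM (adjusted p = 0.000297). Both were lowest in run 3. Kdm6b went the other way, with run means of 73.7, 73.7, 162 and 112 CPM (adjusted p = 0.000487), as did Dnmt3b with 5.19, 7.46, 14.0 and 7.90 CPM (adjusted p = 0.00615). Ezh1, at 42.1, 58.1, 27.6 and 42.8 CPM (adjusted p = 0.00117), and Ring1, at 36.2, 28.6, 16.6 and 25.2 CPM (adjusted p = 0.003), were again lowest in run 3. Without run 3 the test called 6 members, Hdac2, Hdac5, Kmt2d, Suz12, Tet1 and Tet3, and 2231 genes in all (14.6%), so the count of members depends on that run. The labels do not say what a run is, so animal, day and sequencing cannot be told apart.

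**Figure D5:**
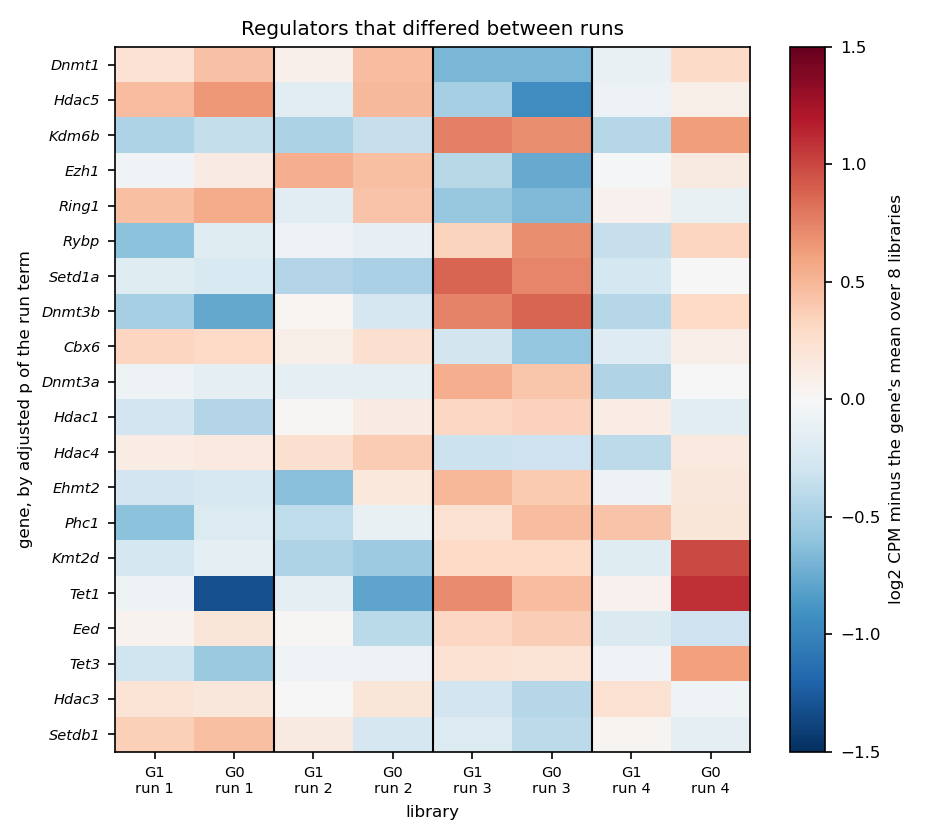
Log2 CPM of each library minus the gene's mean over the 8 libraries (colour scale), for the 20 regulators that differed between runs, in order of the adjusted p of the run term; columns are libraries, with G1 left of G0 in each run. Both run 3 columns share a colour for most genes, blue for Dnmt1, Hdac5 and Ezh1 and red for Kdm6b, Setd1a and Dnmt3b.

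Other genes of the same pathways were examined from 6 lists. Of 139 genes listed, 133 were tested, and 0 were called in either direction in either model. Among other Polycomb genes, Phf1, an accessory PRC2 subunit, averaged 51.9 ± 7.58 CPM in G1 and 65.8 ± 12.1 CPM in G0 (SD, n = 4 each), a log2 fold change of −0.34 ± 0.14 (SE; adjusted p = 0.297), and Auts2, a partner of a PRC1 variant, averaged 65.6 ± 13.0 CPM in G1 and 81.7 ± 9.49 CPM in G0 (−0.32 ± 0.14; adjusted p = 0.317). Ezhip is not analysed here. Among methyltransferases and their complexes, Ash1l, a trithorax-group H3 lysine 36 methyltransferase, had a log2 fold change of −0.33 ± 0.12 (SE; adjusted p = 0.233), and Setd3, an actin histidine methyltransferase, 0.25 ± 0.12 (adjusted p = 0.394). Uhrf1, which brings Dnmt1 to hemimethylated DNA and is known to peak in cycling cells, averaged 8.66 ± 4.06 CPM in G1 and 5.25 ± 0.976 CPM in G0. It was higher in G1 in all 4 runs, with log2 ratios of 0.47, 0.15, 0.72 and 1.15, but its log2 fold change of 0.63 ± 0.25 (SE) had an adjusted p of 0.273. The other genes with small p on their lists had adjusted p from 0.288 to 0.560: Mbd5 at −0.47, Phf8 at −0.28, Kdm3a at −0.22, Sirt1 at −0.30, Crebbp at −0.27 and Kat6b at −0.36 on the log2 scale. Run 4 gave the lowest ratio of Mbd5 (−0.89), Phf8 (−0.94), Sirt1 (−0.50), Crebbp (−0.68), Kat6b (−0.82), Auts2 (−0.89) and Ash1l (−0.54). Phf1 and Kdm3a had ratios of −0.23 and 0.09 in that run. In run 1 Phf8 and Crebbp had ratios of 0.12 and 0.05.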

How the data were processed

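Per the labels' protocols, polyadenylated RNA was selected with oligo-dT, made into stranded libraries with a TruSeq kit and sequenced as paired reads on a HiSeq. Per the submitters' processing notes, reads passed through Trimmomatic 0.35 and STAR 2.5.2a on mm10. How reads were counted, on which strand and against which annotation is not stated in any source used here. The authors deposited 1 table of raw, unnormalized counts by Ensembl identifier, with 0 unused columns. Identifiers were matched to symbols with GENCODE M21 on GRCm38 (54808 matched, 29 not), which also gave positions, exon lengths and overlaps.

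Counts were tested with edgeR 4.0.16 in R 4.3.3 (robust quasi-likelihood, two-sided, TMM, filterByExpr by group), with Benjamini-Hochberg adjustment over all 15192 genes at 0.05. The model had phase alone; a second had the run as replicate block. Same-run libraries deviated together (Pearson r of 0.668, 0.470, 0.638 and 0.437 for runs 1 to 4, at most 0.0971 between runs), so the run numbers in the titles pair the samples. The size of a log2 fold change divided by the root of its F statistic gave its standard error. Within-run ratios used a prior count of 2. Transcript length and GC, known for 99.94% of tested genes, entered as per-library spline offsets with 5 degrees of freedom. Alternatives were RLE size factors, other low-count filters, DESeq2 1.42.0, limma-voom (limma 3.58.1) and left-out libraries and runs. The test of the run term was added after the data were seen. Scripts were tested on simulated counts. Chi-square per degree of freedom between libraries of a group was 24.5 to 116.3, so none was a copy of another.

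The members and lists were chosen with earlier results of these data known. Values per library are given for the 3 members of each class with the smallest p in the blocked model and for sets of paralogs, and other pathway genes are named where they are among the 2 with the smallest p of their list; a few other members are described by means and ranges. 1 of these other pathway genes is not reported here.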

Additional observations from a re-analysis of the deposited data

Results flagged for a closer look

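The groups of 4 libraries were screened for a library set apart from the other 3 (a gap to its nearest neighbour above Dixon's 95% critical value for the group's range). Of 100 groups examined, 7 held one, and chance gives about 5% of groups. In the G1 group the library of run 3 was the one set apart in 5 genes. It was high for Kdm6b, at 165 CPM against 70.4 to 72.9 CPM in the other G1 libraries, for Phc2 at 349 against 262 to 272 CPM, for Setd1a at 16.1 against 6.52 to 7.79 CPM and for Suv39h1 at 14.3 against 11.5 to 11.6 CPM, and low for Tet2, at 10.2 against 27.9 to 29.8 CPM. In the G0 group, Kdm5a was low in run 3, at 67.3 CPM against 77.5 to 78.4 CPM, and Jarid2 was high in run 4, at 24.1 CPM against 19.2 to 19.7 CPM. For Kdm6b and Setd1a the G0 library of run 3 was high as well (159 and 14.6 CPM), and for Tet2 it was not (24.1 CPM).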

How the results depend on the processing

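No member was called under any of the 23 alternatives, and the smallest adjusted p of a member over them was 0.136. Over all genes, the counts called higher and lower in G1 were 0 and 0 with phase alone, with RLE size factors, with limma-voom and with at least 10 counts in every library. They were 14 and 73 with no low-count filter and 10 and 24 with DESeq2. With the replicate block they were 73 and 116 with edgeR, 97 and 136 with DESeq2, 77 and 134 with limma-voom, 74 and 123 with RLE size factors, 53 and 92 with at least 10 counts in every library, and 122 and 143 with length and GC offsets. Leaving out single libraries (phase alone) or runs (replicate block) gave 0 to 99 genes higher and 0 to 175 lower.

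Fits with a single library left out had phase alone in the model, and fits with a run left out had the run block. The ranges below span both, so they are not ranges of the estimates with run alone. Class medians of log2 fold change with a library or run left out ranged from −0.15 to 0.0064 for PRC1, −0.20 to 0.0832 for the H3 lysine 9 methyltransferases, −0.25 to 0.13 for the DNA methyltransferases, −0.17 to 0.0787 for the deacetylases, −0.20 to 0.06 for PRC2 and −0.24 to 0.20 for the TET enzymes. The H3 lysine 4 and 36 class ranged from −0.47 to −0.05 and the demethylases from −0.26 to −0.09, so both stayed negative with any library or run left out. With length and GC offsets the median of the H3 lysine 4 and 36 class was −0.01, with 4 of its 8 genes positive. That of the demethylases was −0.11. Of 1147 member values under the alternatives, 116 changed sign, in 32 members, none of them called. Leave-one-out counts of genes differing between runs were 6 to 23 of the members and 2231 to 5379 of all genes, lowest without run 3. The other settings gave 18 to 27 members. Counts over all tested genes in those settings are not given here, so this range cannot set the members apart from other genes.

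With 4 libraries a phase and a biological coefficient of variation of 34.9% (16.9% with the block), small differences are out of reach. Phf19 had the widest interval of the 50.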
